A study of Mus musculus with 20 samples.

Results

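The 10 genes described here are immediate early genes: Fos, Fosb, Jun and Junb, which encode subunits of the transcription factor AP-1, Egr1, Egr2 and Egr3, which encode zinc finger transcription factors, and Ier2, Ier3 and Dusp1. They were taken by gene symbol, 10 of the 22102 entries of a differentiation time course and 10 of the 42458 entries of a survey of cell lines, and all 10 were found once in each table and passed the filters on low values. In mm9 the time course table places Fos at chr12:86814850-86818219, Fosb at chr7:19888044-19895394, Jun at chr4:94715726-94718913, Junb at chr8:87500810-87502617, Egr2 at chr10:67000616-67004936 and Egr3 at chr14:70477251-70479964. Ier2 lies at chr8:87185229-87186751, near Junb, and Ier3 and Dusp1 lie at chr17:35958657-35959856 and chr17:26642536-26645417. The genes were picked with their measured values in all 20 libraries in view, so their levels and differences are given as a description, without a test.

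The series held 20 mouse RNA sequencing libraries, made from mRNA purified on beads, and the study asked about Braveheart, a long noncoding RNA, in the differentiation of embryonic stem cells towards heart muscle. The time course had 12 libraries from E14 embryonic stem cells (strain 129/Ola) that carried a lentiviral pLKO.1 hairpin and had been selected with puromycin. A scrambled hairpin was the control, and hairpins A and B were directed against Braveheart. Each of these 3 cultures gave 1 library at days 0, 3, 6 and 9, so hairpins A and B are the 2 samples of the depleted group and the control is 1 sample. For all of these libraries the labels describe both plain embryoid bodies and a directed route in serum-free medium with VEGF, Activin A and BMP4. The sources used here do not say which of these a library came from, or whether day 0 cells grew on feeder cells. The level of Braveheart itself was not analysed here.

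The cell line survey, called the discovery set here, had 8 libraries from untreated cells. It held 2 libraries of wild type E14 stem cells (129/Ola) and 2 of wild type v6.5 stem cells (129/svJae x C57BL/6). It also held 1 library of embryonic fibroblasts (MEF) with an Oct4-GFP reporter, of the same cross as v6.5, from which the reprogrammed lines were made. The partially reprogrammed group was made up of the lines MCV6 and MCV8, 1 library each, and miPS MCV8.1 was 1 library of a fully reprogrammed line. All 3 reprogrammed lines carried Oct4-GFP and retroviral Oct4, Sox2, c-myc and Klf4. Stem cells and iPS cells grew on irradiated fibroblasts and were pre-plated before harvest to take these away, while the partially reprogrammed lines grew without feeders. Nothing in the labels says that libraries of a group came from separate cultures, so any spread between them may be technical.

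Immediate early genes are transcribed within minutes of a signal such as a growth factor or serum, from transcription factors that the cell already holds, and most of their mRNAs are short-lived. The mitogen-activated protein kinase ERK acts on ternary complex factors bound with serum response factor (SRF) at CArG boxes, and several kinases act on CREB at cyclic AMP response elements. The AP-1 and Egr proteins then switch on a second set of genes, among them genes that damp the same pathway, such as the phosphatase gene Dusp1. Handling of cells and medium changes are known to induce them as well.

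The promoter windows show which of these elements lie next to the start of the genes whose levels differed most between days, beside 2 genes that differed less or later. RefSeq promoters of build GRCm38.p6 were found for 7 of the 10 genes, not for Egr1, Egr3 or Ier2, and only the 250 bases before the annotated start were read. Capitals mark matches on either strand to the CArG box, to TGACGT, the core of the cyclic AMP response element, to TGANTCA, the AP-1 site, to GCGNGGGCG, the Egr site, or to TATAAA.
Fos, chr12:85473640-85473889, plus strand: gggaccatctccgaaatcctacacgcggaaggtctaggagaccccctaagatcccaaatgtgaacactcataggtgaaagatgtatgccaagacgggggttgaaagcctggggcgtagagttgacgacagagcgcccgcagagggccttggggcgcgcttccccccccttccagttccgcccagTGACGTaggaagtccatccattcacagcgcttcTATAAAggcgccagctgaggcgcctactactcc
Egr2, chr10:67537619-67537868, plus strand, 1 of 5 listed windows: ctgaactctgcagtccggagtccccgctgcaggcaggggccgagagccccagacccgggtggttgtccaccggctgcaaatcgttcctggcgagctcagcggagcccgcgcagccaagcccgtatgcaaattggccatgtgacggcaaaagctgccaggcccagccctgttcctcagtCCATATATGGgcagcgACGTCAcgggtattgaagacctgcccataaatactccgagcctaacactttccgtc
Fosb, chr7:19310046-19310295, minus strand: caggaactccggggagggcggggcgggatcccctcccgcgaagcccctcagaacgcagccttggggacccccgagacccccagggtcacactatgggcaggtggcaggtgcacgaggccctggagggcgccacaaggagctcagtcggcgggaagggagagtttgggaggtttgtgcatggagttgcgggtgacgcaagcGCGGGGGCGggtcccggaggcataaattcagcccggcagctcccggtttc
Dusp1, chr17:26508473-26508722, minus strand: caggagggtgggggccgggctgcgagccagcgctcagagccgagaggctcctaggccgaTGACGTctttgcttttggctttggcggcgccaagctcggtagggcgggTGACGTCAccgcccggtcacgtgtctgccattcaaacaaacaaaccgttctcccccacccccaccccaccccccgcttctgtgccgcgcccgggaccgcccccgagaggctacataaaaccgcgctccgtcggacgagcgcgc
Jun, chr4:95052223-95052472, minus strand: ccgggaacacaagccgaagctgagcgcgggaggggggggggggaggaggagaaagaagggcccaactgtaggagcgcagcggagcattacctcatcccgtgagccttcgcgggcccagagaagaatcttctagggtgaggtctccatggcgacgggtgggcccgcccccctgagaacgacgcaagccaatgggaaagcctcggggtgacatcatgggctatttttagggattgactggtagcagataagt

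The Fos window held TGACGT starting 66 bases before the start and TATAAA 33 bases before it. Egr2 had a CArG box 72 bases before the start and TGACGT 56 bases before it, and a CArG box was in 4 of its 5 windows. Some of these windows overlap and share the same CCATATATGG site, and another held CCTTTTTTGG. Dusp1 held TGACGT 3 times, starting 191, 143 and 141 bases before the start, and the last 2 of these overlap as both strands of TGACGTCA. Fosb held the Egr site 50 bases before the start, and the windows of Jun, Junb and Ier3 held none of the 5 motifs. Among all 32851 windows of this length, 1.47% held a CArG box, 6.47% TGACGT, 6.75% TGANTCA, 4.7% GCGNGGGCG and 12.4% TATAAA, and none of the 7 genes held TGANTCA. A match is a string of letters and not a shown binding site, and a known element farther from the start lies outside these windows. An element that departs from the 5 motifs is not marked either. The Jun window, for example, holds tgacatca, a variant of TGACGTCA that matches none of them.

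Time course values are FPKM, fragments per kilobase of transcript scaled to sequencing depth, so levels can be compared between genes within the table. Read totals per library are not in that table, and the steps of its low values put relative depth between 0.689 and 1.12 of the scrambled day 0 library. In the discovery set the expected counts summed to between 7536503 and 23662593 per library. The library of hairpin B stood apart at days 6 and 9. Its 6 pluripotency markers (Pou5f1, Nanog, Zfp42, Esrrb, Dppa5a and Tdgf1) summed to 4473 and 7207 FPKM there, against 945 and 680 with the scrambled hairpin and 1277 and 802 with hairpin A, while its cardiomyocyte markers summed to 11.4 FPKM at day 9 against 419 and 70.5.

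At day 0 Egr1 was the most abundant of the 10 genes in every culture and Egr3 the least. In the scrambled library the order ran from Egr1 at 238 FPKM through Fos (164), Ier2 (124), Dusp1 (65.5), Junb (45.4), Fosb (35.9), Jun (17.6), Ier3 (12.9) and Egr2 (6.02) to Egr3 (1.59). Ordered by their means over the 3 cultures, the ranges of every pair of neighbours overlapped, and hairpin B stood above the other cultures for all 10 genes. By day 6 the order was another: Ier2 led with 53.2 FPKM in the scrambled library, Jun followed with 23.5, and Fos stood at 5.06.

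**Figure D1:**
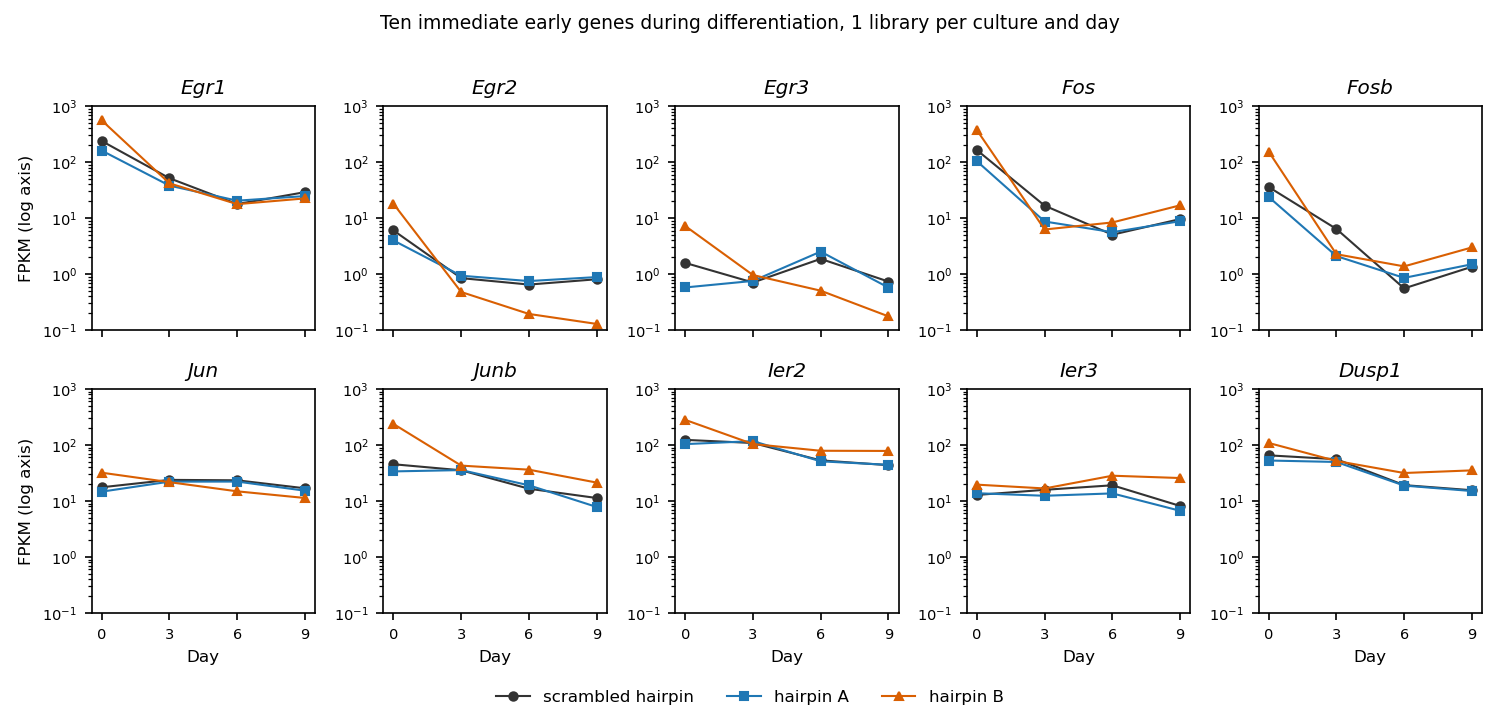
FPKM (vertical log axis) of the 10 genes against day (horizontal axis), with 1 point per library and a line per culture. Egr1, Egr2, Fos and Fosb are lower at day 3 than at day 0 in all 3 cultures, Junb, Ier2 and Dusp1 mostly later, and hairpin B is the highest culture at day 0 in every panel.

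Fos, the AP-1 subunit that pairs with Jun proteins, had the largest log2 difference of the 10 genes at day 3. Its day 0 values were 164 FPKM with the scrambled hairpin, 104 with hairpin A and 372 with hairpin B, the order kept for all genes below. Its day 3 values were 16.7, 8.70 and 6.27 FPKM. The lowest day 0 library was thus several times above the highest day 3 library, and the difference was 9.81-fold, 11.9-fold and 59.3-fold within the cultures. Day 6 values were 5.06, 5.62 and 8.38 FPKM. At day 9 they were 9.62, 8.82 and 16.9 FPKM, each above its own culture's day 6 value and with no overlap between the days. As a log2 difference of (FPKM + 1) from day 0, Fos stood at -4.11 ± 0.48 (SE) at day 3, -4.69 ± 0.48 at day 6 and -3.92 ± 0.48 at day 9.

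Fosb, a paralogue of Fos that also pairs with Jun proteins, followed the same course from a lower level. Its day 0 values were 35.9, 23.9 and 154 FPKM, and its day 3 values were 6.41, 2.10 and 2.27. At day 6 it was at 0.557, 0.858 and 1.38 FPKM, and at day 9 at 1.35, 1.50 and 3.00. Every culture was lower at day 3 than at day 0, lower again at day 6, and above its day 6 value at day 9. Its log2 differences from day 0 were -3.63, -4.78 and -4.19 (SE 0.62 each) at days 3, 6 and 9.

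Egr1, a zinc finger activator that binds GC-rich sites in many growth-related promoters, stood at 238, 160 and 556 FPKM at day 0. Day 3 values were 51.5, 38.1 and 41.8 FPKM, and day 6 values 17.8, 20.5 and 17.8. Day 9 values were 29.1, 24.7 and 22.5 FPKM. No value of one day overlapped with another day's, so Egr1 was lowest at day 6 and higher again at day 9, at 12.2%, 15.4% and 4.05% of each culture's own day 0. At day 6 the cultures were within 1.15-fold of each other, with a mean of 18.7 ± 1.55 FPKM (SD, n = 3), against 318 ± 209 at day 0.

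Egr2, an Egr factor known from hindbrain and Schwann cell development, was at 6.02, 3.99 and 18.0 FPKM at day 0 and below 1 FPKM in all 9 later libraries. With hairpin B it was at 0.480 FPKM at day 3, 0.195 at day 6 and 0.129 at day 9, while the other cultures lay between 0.652 and 0.937 FPKM from day 3 on. Egr3, a close relative that Egr1 can substitute for at some sites, had no shared course. It stood at 1.59, 0.579 and 7.24 FPKM at day 0 and at 0.709, 0.757 and 0.964 at day 3. Its day 6 values were 1.87, 2.53 and 0.507 FPKM, so the scrambled and hairpin A cultures were above their day 0 level while hairpin B was 14.3-fold below its own. At such levels the pseudocount of 1 FPKM sets much of a log2 difference. That of Egr2 at day 9 was -2.48 ± 0.44 and became -3.70 with a pseudocount of 0.1.

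Junb, an AP-1 subunit with weaker activation than Jun, was lower in 2 stages. It stood at 45.4, 33.8 and 238 FPKM at day 0 and at 35.4, 35.7 and 42.9 at day 3, so at day 3 only hairpin B was far from its day 0 level. It was then at 16.6, 19.1 and 36.3 FPKM at day 6 and 11.3, 7.85 and 21.4 at day 9. Its log2 difference at day 3 was -0.91 ± 0.62 and became -0.08 without the day 0 library of hairpin B. At day 9 it was -2.43 ± 0.62, and -1.61 without that library.

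Ier2, a small nuclear protein induced by serum, stayed near its day 0 level until day 3 in 2 cultures. Values were 124, 104 and 281 FPKM at day 0 and 109, 117 and 104 at day 3. They were 53.2, 51.2 and 79.0 FPKM at day 6, with no overlap with either earlier day, and 43.7, 44.4 and 78.4 at day 9. Dusp1, which removes phosphate from MAP kinases, had the same timing, with 65.5, 52.9 and 109 FPKM at day 0, and 55.8, 49.9 and 51.9 at day 3. It then stood at 19.2, 18.9 and 31.7 FPKM at day 6, and at 15.6, 15.1 and 35.3 by day 9. Both were thus lower at day 6 than at day 3 in every culture, with scrambled Ier2 at 43.0% and scrambled Dusp1 at 29.4% of day 0.

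Jun, the AP-1 subunit that can pair with itself, and Ier3, a regulator of survival signalling, did not share this course. Jun was at 17.6, 14.7 and 32.1 FPKM at day 0 and 23.9, 22.2 and 21.7 at day 3. Its day 6 values were 23.5, 22.3 and 14.9 FPKM, and its day 9 values 16.9, 15.3 and 11.3. With the scrambled hairpin and hairpin A it was higher at days 3 and 6 than at day 0, whereas with hairpin B it was lower on every later day. Ier3 was at 12.9, 13.8 and 19.6 FPKM at day 0 and at 19.1, 13.7 and 28.3 at day 6. At day 9 the cultures parted, with 8.18 and 6.70 FPKM for the scrambled hairpin and hairpin A and 25.8 for hairpin B. The log2 differences of Jun and Ier3 stayed between -0.48 and 0.35 at days 3, 6 and 9, and their sign changed with 1 library left out at 4 of these 6 comparisons.

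**Figure D2:**
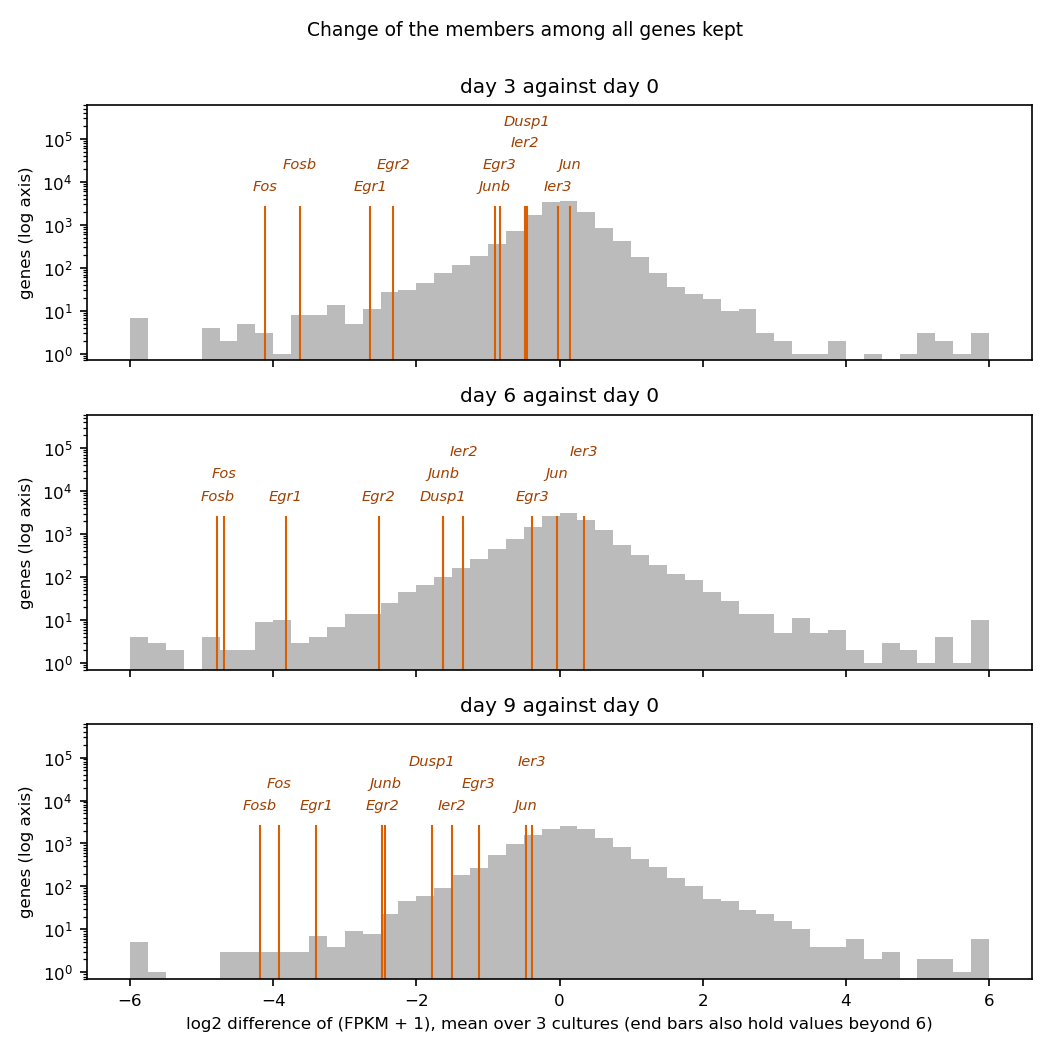
Number of genes (vertical log axis) by log2 difference of (FPKM + 1) from day 0 (horizontal axis, bins of 0.25) over the 14108 genes kept, with the 10 members as orange lines, for days 3, 6 and 9. Fos and Fosb lie in the thin left tail at each day, while Jun and Ier3 lie in the bulk.

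Counted over the 10 genes, 4 were at least 2-fold lower at day 3 (Egr1, Egr2, Fos and Fosb), 7 at day 6 (these with Junb, Ier2 and Dusp1) and 8 at day 9 (these with Egr3), and none was at least 2-fold higher. Of all 14108 genes kept, 3.91%, 5.32% and 5.17% were at least 2-fold lower on those days and 2.69%, 6.24% and 8.46% higher. These counts use the contrasts the genes were picked on, so nothing is read from them. The members' median log2 difference was -0.87, -1.63 and -2.11 at days 3, 6 and 9, beside 0.01, 0.07 and 0.10 for all genes. Values of days 0 and 3 did not overlap for 4 members (42.5% of genes), and those of days 3 and 6 for 4 (Egr1, Fosb, Ier2 and Dusp1, beside 43.3% of genes). Between days 6 and 9, 2 members were higher without overlap (Egr1 and Fos), where 14.9% of 14242 genes did not overlap between these days in either direction.

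Markers of other cells moved with the days too. The 6 fibroblast markers (Col1a1, Col1a2, Col3a1, Thy1, Postn and Fbn1) summed to 50.7, 58.2 and 59.2 FPKM at day 0 and to 19.1, 17.2 and 12.3 at day 3, where the scrambled library listed Col3a1 at 0 and hairpin A listed Postn at 0. At day 9 they summed to 121, 65.2 and 34.1 FPKM. All 6 were above 1 FPKM in each day 0 library. In bulk RNA, fewer cells of a kind and less RNA per cell cannot be told apart, and the part of fibroblasts or feeders in the day 0 levels was not tested.

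At day 0 the 3 cultures differed before differentiation began. Hairpin B was the highest culture for all 10 genes and hairpin A the lowest for 9, with Ier3 the exception, where hairpin B is highest at 39.3% of all genes kept and hairpin A lowest at 25.7%. The gap between hairpin B and the scrambled library was 5.23-fold for Junb, 4.56-fold for Egr3, 4.29-fold for Fosb and 2.99-fold for Egr2. It was 2.34-fold for Egr1, 2.27-fold for Fos and Ier2, 1.82-fold for Jun, 1.66-fold for Dusp1 and 1.53-fold for Ier3. On the (FPKM + 1) scale 7 of the 10 were at least 2-fold above both other cultures (Egr1, Egr2, Egr3, Fos, Fosb, Ier2 and Junb), as were 193 of 14108 genes (1.37%), and nothing is read from that count of members either.

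**Figure D3:**
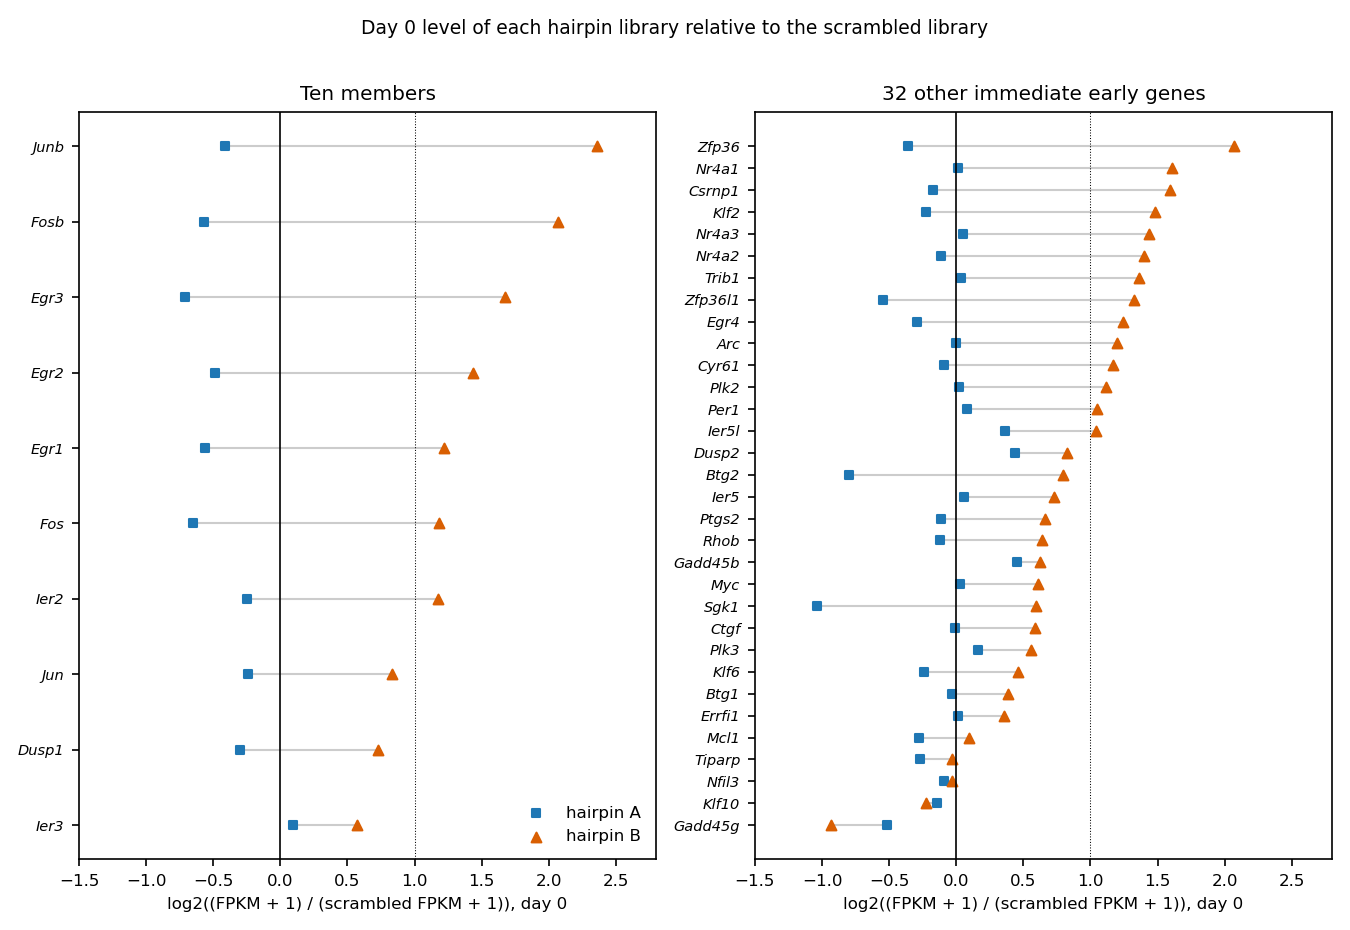
Day 0 level of the hairpin A (blue squares) and hairpin B (orange triangles) libraries relative to the scrambled library, as log2 of the ratio of (FPKM + 1) on the horizontal axis, for the 10 members (left) and 32 other immediate early genes (right). The dotted line marks a 2-fold higher level, which hairpin B passes for 7 members.

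Many immediate early genes outside the 10 were also highest in hairpin B, on lists chosen with earlier results of these data known. Of 32 other immediate early genes, 28 were highest in hairpin B at day 0, and 12 were at least 2-fold above both other cultures (Arc, Csrnp1, Cyr61, Egr4, Klf2, Nr4a1, Nr4a2, Nr4a3, Plk2, Trib1, Zfp36 and Zfp36l1). Zfp36, which encodes an mRNA decay factor, had 26.5, 20.4 and 114 FPKM in the same order of cultures, and Nr4a1, an orphan nuclear receptor, at 19.3, 19.5 and 60.9. These 2 examples were chosen after their values were seen. The list summed to 1316, 1101 and 2252 FPKM. Among 11 other AP-1 and ATF subunits kept, 5 were at least 2-fold above both cultures (Atf3, Batf3, Fosl2, Maff and Mafk). None of 10 heat shock genes was, and that list summed to 6122, 6941 and 6318 FPKM. Of 12 known AP-1 target genes kept, 1 (Plaur) passed that fold.

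Other values of the same libraries stood as follows. The fibroblast marker sum of hairpin B at day 0 was 59.2 FPKM, beside 50.7 with the scrambled hairpin and 58.2 with hairpin A. Its pluripotency marker sum was 5275 FPKM beside 6053 and 7314, and its relative depth was 1.03. Each culture is 1 library, so the gap has no replicate, and its origin was not tested. It entered every comparison with day 0: without that library 5 members in place of 7 were at least 2-fold lower at day 6, and 7 in place of 8 at day 9.

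At day 3 the gap had closed, and no member was at least 2-fold above or below both other cultures in hairpin B, as 0.17% and 0.227% of genes kept were. Here both hairpins were lower than the scrambled library for 5 members (Egr1, Fos, Fosb, Jun and Dusp1), as for 27.8% of genes kept, and nothing is read from that count. Fos was at 8.70 and 6.27 against 16.7 FPKM, and Fosb at 2.10 and 2.27 against 6.41. As log2 differences of (FPKM + 1), Egr1 stood at -0.43 and -0.30, Jun at -0.10 and -0.13 and Dusp1 at -0.16 and -0.10. Fosb was at least 2-fold lower in both, as 57 genes in all (0.404%) were changed by that much in a shared direction. At days 6 and 9 hairpin B was highest for the same 6 members on both days (Fos, Fosb, Junb, Ier2, Ier3 and Dusp1) and lowest for the same 4 (Egr1, Egr2, Egr3 and Jun). On these days its pluripotency markers summed to the 4473 and 7207 FPKM given above, after 5275 at day 0 and 2674 at day 3, and their part in the members' values was not tested. This culture was highest for 38.1% and lowest for 47.8% of all genes kept at day 6, and for 40.9% and 49.4% at day 9. At day 9 Ier3 and Dusp1 were at least 2-fold above both other cultures in hairpin B, as 8.41% of genes were. The ratio of hairpin A to the scrambled library ran from 0.716 for Ier3 to 1.54 for Fosb at day 6, and from 0.693 for Junb to 1.11 for Fosb at day 9.

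As the mean of both hairpins minus the scrambled library, the largest member differences were at day 3, -1.22 ± 0.96 (SE) for Fosb and -1.07 ± 0.75 for Fos, and at day 0, 0.97 ± 1.11 for Junb. Fos and Fosb were the members at least 2-fold lower at day 3, as 0.539% of genes were. At day 0 the sign of 9 members turned when hairpin B was left out, so these means stand between 2 unlike libraries. Limma called 3, 4, 6 and 5 of 14108 genes at days 0, 3, 6 and 9 (0.0213%, 0.0284%, 0.0425% and 0.0354%), none of them a member and none a gene of the pathway lists. At an unadjusted p under 0.05 it had 66, 37, 148 and 199 genes.

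Genes around the members in the pathway were read from lists, which were chosen with earlier results of these data known. Nothing is therefore read from the counts of list genes beside the shares of all genes. Here limma was used with Benjamini-Hochberg adjustment over all 14108 genes. Of these, 2.78%, 3.71% and 6.22% were called lower at days 3, 6 and 9 and 3.26%, 4.97% and 10.3% higher. Of the 32 other immediate early genes, 4 fell by day 3, 7 by day 6 and 7 by day 9, and none rose. With any 1 library left out, between 1 and 4 fell by day 3, between 1 and 6 by day 6 and between 1 and 15 by day 9. With culture as a block, 4, 12 and 16 fell and 1, 1 and 2 rose. Of all 14108 genes, this block called 1360, 2204 and 4218 in either direction. Without the hairpin B culture, a setting chosen after the data were seen, 9, 15 and 15 fell and 8, 7 and 11 rose. That setting called 4978, 7388 and 9095 of all 14108 genes in either direction. Ptgs2, the inducible cyclooxygenase, was at 5.46, 4.96 and 9.21 FPKM at day 0 and at 0.198, 0.381 and 0.376 at day 3, a log2 difference of -2.48 ± 0.20 (adjusted p = 0.000347, limma). Gadd45g, a stress and differentiation gene, fell by 1.36 ± 0.23 on the log2 scale by day 3 (adjusted p = 0.0111, limma) and Plk3, a stress kinase, by 2.02 ± 0.41 by day 6 (adjusted p = 0.0238, limma). Klf2, a Krüppel-like factor of the pluripotency network, went from 202, 172 and 564 FPKM at day 0 to 9.77, 8.31 and 137 at day 9 (adjusted p = 0.0456, limma).

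Of 11 other AP-1 and ATF subunits kept, Jdp2, an AP-1 repressor, fell by 0.91 ± 0.20 on the log2 scale by day 3 (adjusted p = 0.0327, limma), none passed at day 6, and Atf7 rose by 0.73 ± 0.20 by day 9 (adjusted p = 0.042, limma). With culture as a block, 2, 1 and 1 fell on the 3 days and 0, 0 and 1 rose, where 1360, 2204 and 4218 of all 14108 genes were called. Without the hairpin B culture, 2, 4 and 2 fell and 3, 2 and 3 rose, where 4978, 7388 and 9095 genes were called. The list's median was -0.13, -0.39 and -0.34 at the 3 days. Among 12 AP-1 target genes kept, 4 fell by day 3 and none rose. These included Spp1, which encodes osteopontin (394, 465 and 292 FPKM at day 0, 51.1, 76.1 and 34.7 at day 3, adjusted p = 0.033, limma) and Hbegf, an EGF receptor ligand. With any 1 library left out, between 0 and 3 fell by day 3. By day 9, 3 had fallen and Vegfa, an endothelial growth factor, had risen by 1.52 ± 0.33 (adjusted p = 0.0244, limma).

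Of 25 genes upstream of the members, in the MAP kinase cascade and SRF axis, none passed at day 6, and 3 rose and 1 fell by day 9. The gene that fell was Srf itself, at 23.7, 21.6 and 44.7 FPKM at day 0 and 13.0, 13.3 and 18.0 at day 9 (adjusted p = 0.0395, limma). With culture as a block, 5 fell by day 9, where 4218 of all 14108 genes were called in either direction. Without the hairpin B culture, 10 rose and 8 fell by day 9, and 7 rose and 4 fell at each of days 3 and 6. That setting called 4978, 7388 and 9095 of all 14108 genes at days 3, 6 and 9. Of 12 genes that feed back on ERK, Dusp7 and Spry1 rose by day 3, by 1.24 ± 0.11 and 0.77 ± 0.15. By day 9, 4 of them had fallen, among them Spry4, a Sprouty inhibitor of receptor tyrosine kinase signalling, by 2.31 ± 0.42 (adjusted p = 0.0156, limma). Nab1 and Nab2, corepressors of Egr factors, did not pass on any day (0.52 ± 0.24 and 0.49 ± 0.27 at day 3).

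Within the 12 libraries Fosb, Egr1 and Egr2 were highly correlated with Fos, though not alike in every culture. At days 6 and 9 hairpin B was the highest culture for Fos and Fosb and the lowest for Egr1 and Egr2. Pearson's r of log2(FPKM + 1) with Fos was 0.98 for Fosb, 0.96 for Egr1 and 0.93 for Egr2, then 0.76 for Ier2, 0.74 for Dusp1, 0.71 for Junb, 0.48 for Egr3, 0.17 for Jun and 0.08 for Ier3. Of 12788 other genes, none had a higher r with Fos than Fosb had, 7 a higher r than Egr1 and 17 than Egr2. The members were picked with these values in view, so nothing is read from these ranks. The genes nearest to Fos outside the members were Il1rl1 (r = 0.97), Ptgs2 (0.97) and Klf11 (0.96), those nearest to Egr1 were Il1rl1 (0.95), Topors (0.95) and Lyz2 (0.94), and among those nearest to Jun were Insm1 (0.95) and D10Wsu102e (0.91). The points share cultures, days and a high hairpin B library at day 0, and none of the genes nearest to Fos or Egr1 was among the nearest 3 with the hairpin B libraries of days 6 and 9 left out or with ranks in place of values. Insm1 was among the nearest 3 to Jun in both.

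In the discovery set the partially reprogrammed lines had the lowest levels of most of the 10 genes, and fibroblasts the highest of 7. Values here are TPM, a share of all transcripts scaled to a fixed total, with a separate normalisation, so they are not set against the time course. Both partially reprogrammed libraries lay below all 6 other libraries for 8 genes, all except Junb and Ier3, which holds for 10.4% of 18748 genes. The genes were picked with these values in view, so nothing is read from that share.

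**Figure D4:**
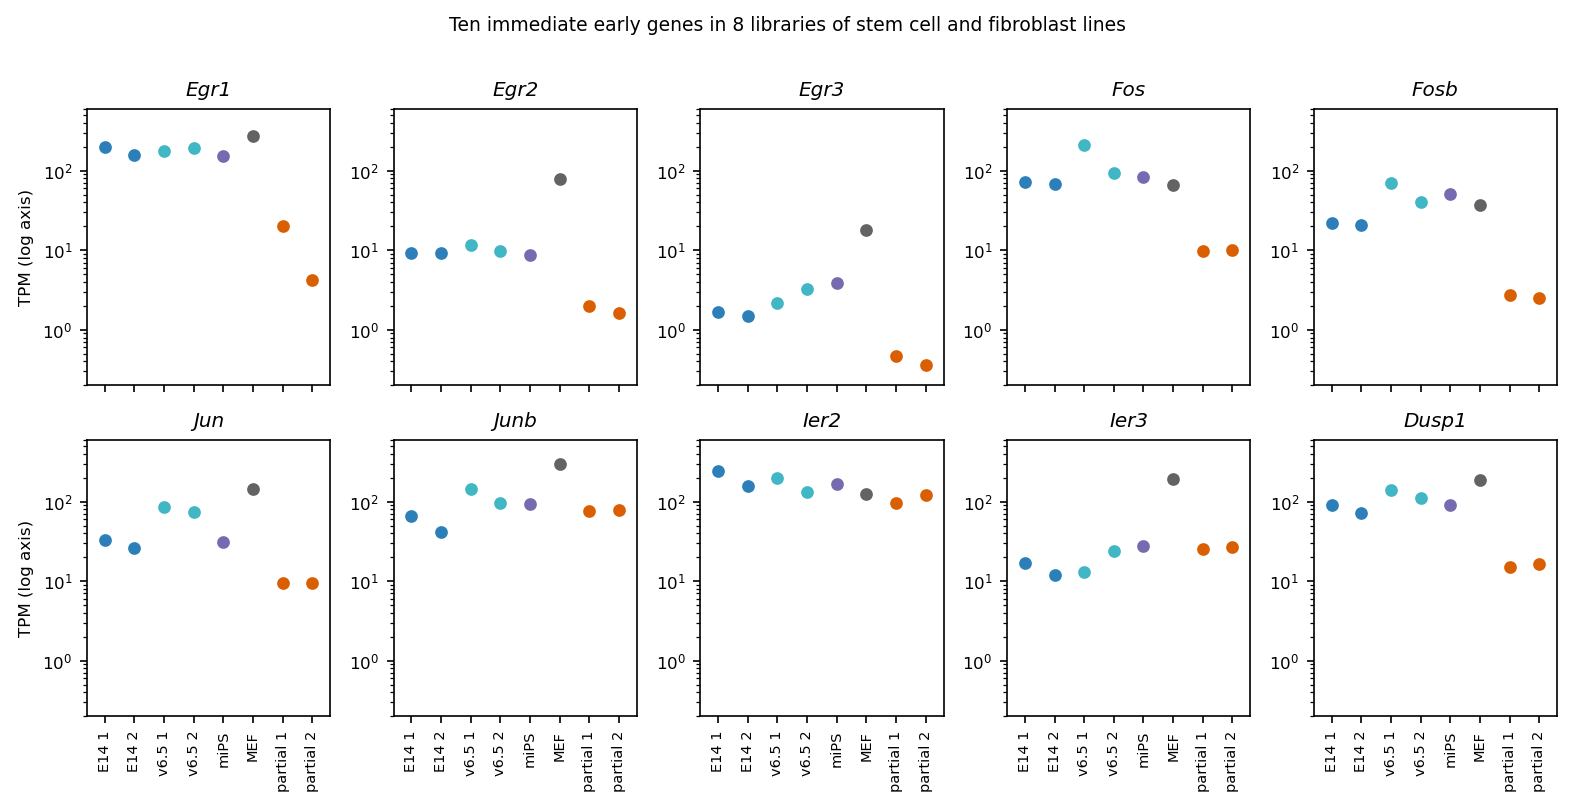
TPM (vertical log axis) of the 10 genes in the 8 discovery libraries (horizontal axis, 1 point each). The 2 partially reprogrammed lines (orange) lie lowest in 8 panels and the fibroblast library (grey) highest in 7.

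Fos stood at 71.1 and 68.0 TPM in E14, 210 and 92.4 in v6.5, 84.5 in miPS and 66.2 in fibroblasts, against 9.79 and 10.0 in the partially reprogrammed lines. The stem cell libraries averaged 110 ± 67.2 TPM (SD, n = 4), 11.1-fold above the mean of the partial lines. Fosb was at 22.3, 20.9, 69.1 and 39.9 TPM in the same 4 libraries, 51.3 in miPS and 36.5 in fibroblasts, against 2.74 and 2.54. For Fos the fibroblast library lay below all 4 stem cell libraries, and for Fosb it lay within their range.

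Egr1 was even across the 4 stem cell libraries, at 198, 159, 178 and 191 TPM, with 154 in miPS and 275 in fibroblasts. The partial lines differed from each other, at 20.2 TPM in MCV6 and 4.17 in MCV8, and its log2 difference from fibroblasts was -4.68 ± 0.84 (-6.34 without MCV6, -3.91 without MCV8). Egr2 was at 79.6 TPM in fibroblasts and between 9.25 and 11.6 in stem cells, and Egr3 at 17.9 and between 1.47 and 3.27. In the partial lines Egr2 had 3 and 1 counts and Egr3 had 1 and 0. Fibroblasts then had 351-fold more Egr2 relative to library size (95% interval 137 to 1290, conditional exact) and 260-fold more Egr3 (46 to 10300). Against the stem cells summed the ratios were 41.6 (16.2 to 153) and 26.8 (4.7 to 1070), and these intervals cover counting error only. The TPM gave much smaller ratios. By that measure the partial lines stood at 1.99 and 1.64 for Egr2 and at 0.467 and 0.357 for Egr3. Fibroblasts were then 43.9-fold and 43.5-fold above the mean of the partial lines, and the stem cell mean was 5.50-fold and 5.20-fold above it.

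Jun differed between the stem cell lines too, with 32.6 and 25.9 TPM in E14, 85.9 and 72.9 in v6.5, 31.4 in miPS, 146 in fibroblasts and 9.46 and 9.61 in the partial lines. Dusp1 followed with 91.2, 71.9, 141 and 110 TPM in stem cells, 90.5 in miPS, 185 in fibroblasts and 15.0 and 16.2 in the partial lines. Junb did not share the low level, at 76.2 and 78.3 TPM in the partial lines, within the range of 42.0 to 146 in stem cells, and at 299 in fibroblasts. Ier3 was at 25.7 and 26.6 TPM there, above all 4 stem cell libraries (12.0 to 24.0), and at 194 in fibroblasts. Ier2 varied least, from 95.6 TPM in MCV6 to 244 in an E14 library.

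With edgeR log2 differences, 9 of the 10 genes were at least 2-fold lower in the partial lines than in fibroblasts (all but Ier2), where 20.8% of 16773 genes were. In stem cells 6 were at least 2-fold lower than in fibroblasts (24.8% of genes), and 7 were at least 2-fold higher than in the partial lines (26.3%). The 2 comparisons with fibroblasts share the 1 fibroblast library. Dusp1, for example, stood at -3.75 ± 0.37 in the partial lines and -1.19 ± 0.32 in stem cells against fibroblasts.

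Cell markers moved with these groups as well. The 6 fibroblast markers summed to 15943 TPM in fibroblasts, to between 143 and 257 in stem cells and to 218 in miPS, and to 21.4 and 10.1 in the partial lines. Stem cells thus held between 0.897% and 1.61% of the fibroblast level, and the part of feeder cells in the stem cell values was not tested. In the partial lines Pou5f1 was at 6491 and 6911 TPM, and in miPS at 1152. All of these lines carry retroviral Oct4, and its part in the values was not tested. Nanog was at 0.951 and 1.67 and Zfp42 at 1.59 and 0.971. Esrrb was at 0.618 and 0.534 and Dppa5a at 4.29 and 1.01. Tdgf1 stood at 18.3 TPM in MCV6 and 90.0 in MCV8, against 0.362 in fibroblasts and 402 to 487 in stem cells. Stem cells and miPS were grown on feeders and the partial lines were not, so growth on feeders and the state of reprogramming cannot be told apart.

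Immediate early genes outside the 10 were tested as well. The lists used here and below were chosen with earlier results of these data known. Nothing is therefore read from their counts beside the shares of all genes. By edgeR's quasi-likelihood test with Benjamini-Hochberg adjustment over 16773 genes, 21 of 32 were lower and 1 higher in the partial lines than in fibroblasts, where 8.87% of genes were called lower and 4.95% higher. Against stem cells, 12 were higher in stem cells and 1 lower (background 16.1% and 13.6%), and without MCV6 or MCV8 8 and 7 were higher. Without MCV6 or MCV8, 16 and 14 were lower than in fibroblasts. Between stem cells and fibroblasts 16 were lower and 1 higher (15.4% and 13.2%). Ptgs2 stood at 263 TPM in fibroblasts and between 2.60 and 7.99 in all other libraries, a log2 difference of -6.04 ± 0.49 in stem cells (adjusted p = 0.0017). Sgk1, a serum-induced kinase, had 10.1 and 17.1 counts in the partial lines and 627 or more in each stem cell library. Egr4 had 0 counts in both partial lines and 11 in fibroblasts, and between 12 and 57.9 in stem cells, from libraries of unlike depth. By TPM it was at 0.717 and 0.460 in E14, below the 1.04 of fibroblasts, and at 3.34 and 3.32 in v6.5, above it. The 1 gene that was higher in the partial lines than in stem cells was Myc, at 1405 and 2002 TPM against 15.2 to 25.0, and these lines carry a c-myc transgene.

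Of 17 AP-1 target genes, 13 were lower in stem cells than in fibroblasts and 10 lower in the partial lines, with none higher in either. Between stem cells and partial lines they went both ways, 7 higher and 4 lower in stem cells. Mmp9, a matrix protease, had 499 counts in fibroblasts, between 47 and 58 in stem cells and 0 in both partial lines. Among the other AP-1 subunits Fosl1, a Fos-related subunit, went the other way from Fos between stem cells and partial lines. It was at 90.0 TPM in fibroblasts, 25.6 and 21.7 in the partial lines and between 3.49 and 6.60 in stem cells. The log2 difference between stem cells and partial lines was -2.48 ± 0.27 (adjusted p = 0.00265, edgeR). Like Fos, it was lower in the partial lines than in fibroblasts. Atf3, a stress-induced subunit, was higher in stem cells than in the partial lines by 2.92 ± 0.39 (adjusted p = 0.00471, edgeR).

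Of 25 genes of the MAP kinase cascade and SRF axis, 3 were lower and 1 higher in the partial lines than in fibroblasts. Elk3, a ternary complex factor, stood at -2.27 ± 0.34 (adjusted p = 0.0102, edgeR). Mkl1, an SRF coactivator, stood at -2.88 ± 0.40 (adjusted p = 0.00835, edgeR). In stem cells 6 were lower and 1 higher than in fibroblasts. Elk3 was at 6.04 to 9.45 TPM in stem cells, 30.3 and 31.7 in the partial lines and 127 in fibroblasts. Mkl1 was at 12.1 to 19.1 TPM in stem cells, 9.89 and 12.4 in the partial lines and 57.3 in fibroblasts. Srf itself was at 59.1 and 55.2 TPM in the partial lines, within the 54.2 to 139 of stem cells. Of 12 ERK feedback genes, 4 were lower and 1 higher in stem cells than in fibroblasts. In the partial lines 3 were lower and 1 higher than in fibroblasts. Spry1 stood at 3.52 and 1.76 TPM in the partial lines, against 41.3 in fibroblasts and 21.1 to 49.6 in stem cells. Without MCV6 or without MCV8, 1 and 0 of these feedback genes were called lower. Nab2, the corepressor gene that Egr1 is known to induce, was lower in both stem cells (-3.04 ± 0.28, adjusted p = 0.002, edgeR) and partial lines (-3.03 ± 0.34, adjusted p = 0.00453, edgeR) than in fibroblasts.

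Levels of several members also differed among the libraries of pluripotent lines. As the members were picked with these values in view, nothing is read from the counts that follow. Both v6.5 libraries were above both E14 libraries for 7 genes (Egr2, Egr3, Fos, Fosb, Jun, Junb and Dusp1), as for 27.4% of 18748 genes. Jun had the largest difference, -1.68 ± 0.30 for E14 minus v6.5, and 4 genes were at least 2-fold lower in E14 (Fos, Fosb, Jun and Junb), beside 18.6% of 16773 genes. The v6.5 libraries also differed from each other, with the first at 2.27-fold the second for Fos and 1.73-fold for Fosb, and without the first the difference of Fos was -0.48 in place of -1.39. MiPS lay within the range of the 4 stem cell libraries for 6 genes (Fos, Fosb, Jun, Junb, Ier2 and Dusp1), as for 65.6% of genes. It was above that range for Egr3 (3.84 TPM) and Ier3 (27.8) and below it for Egr1 (154) and Egr2 (8.71).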

How the data were processed

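RNA from 20 mouse libraries was sequenced. For the time course the authors deposited FPKM per gene from TopHat 1.14, Bowtie 0.12.7 and Cufflinks 1.3.0 on mm9, per the submitters' processing notes. They also deposited 8 columns of a ratio between each hairpin and the scrambled library, which equal the ratio of (FPKM + 1) within a relative difference of 1.42e-06 and were not used. For the discovery set the authors deposited expected counts and TPM per gene from TopHat 1.3 and RSEM on mm9, per the same notes. The 16 columns of bounds beside the TPM were not used, 343 entries had no values, and 58% of expected counts were whole. TPM can be above 0 at a count of 0. The sources used here do not state strand use in counting, and 25 gene names of the time course had been turned into dates.

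Time course values were tested as log2(FPKM + 1) with limma 3.58.1 (R 4.3.3, mean trend), over the 14108 genes that reached 1 FPKM in 2 or more libraries. Days were fitted with a term for depletion. Depletion was fitted with 8 groups, where the lone scrambled library is assumed to vary like the hairpin pairs. Expected counts were rounded and tested with edgeR 4.0.16 (quasi-likelihood, TMM), over the 16773 genes that reached 1 CPM in 2 or more libraries, with the spread of the single MEF and miPS libraries taken from the other groups. A standard error of an edgeR log2 difference is its size over the root of F. Adjusted p-values are Benjamini-Hochberg, with a threshold of 0.05, and the tests were checked on simulated data. As nothing shows separate cultures within a group, a p-value reflects the spread among these libraries alone.

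The labels tie the libraries of one hairpin culture across days, so the fit with culture as a block is paired. Within a culture, deviations from the day means had correlations of -0.00 to 0.45 (scrambled), -0.05 to 0.34 (hairpin A) and -0.09 to 0.64 (hairpin B). The members and the gene lists were chosen with earlier results of these data known. Beside the members, the genes named are, for each list and comparison described, up to 3 with the largest difference among those past the threshold (up to 2 where none passed), and the 3 genes with the highest correlation with Fos, Egr1 and Jun among genes with a mean of at least 1 FPKM and a locus of at least 300 bases. Some genes that this rule names are not reported here. Alternatives were another pseudocount, no filter, loci under 300 bases left out, blocks, other tools and left-out libraries.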

Additional observations from a re-analysis of the deposited data

Results flagged for a closer look

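For 3 genes both hairpins lay on one side of the scrambled library on one day and on the other side on another day. The values are means of both hairpins minus the scrambled library on the log2(FPKM + 1) scale, and the difference between the days was not tested. Fos stood at -1.07 at day 3 (-0.87 for hairpin A, -1.28 for hairpin B) and at 0.38 at day 6 (0.13 and 0.63). Fosb stood at -1.22 at day 3 (-1.26 and -1.18), at 0.43 at day 6 (0.25 and 0.61) and at 0.43 at day 9 (0.09 and 0.76). Egr3 stood at 0.12 at day 3 (0.04 and 0.20) and at -0.35 at day 9 (-0.14 and -0.56), from levels under 1 FPKM in all 6 libraries. With a single scrambled library per day, each of these values rests on that library.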

How the results depend on the processing

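The time course comparisons called 852, 1224 and 2337 genes at days 3, 6 and 9. With culture as a replicate block they called 1360, 2204 and 4218. With 1 library left out, the counts ran from 167 (without the scrambled day 3 library) to 1236 (without hairpin B at day 0), from 93 to 1631, and from 85 to 7504 (without hairpin B at day 9). Without the hairpin B libraries of days 6 and 9 they were 3812, 6510 and 8429, and without the whole hairpin B culture 4978, 7388 and 9095. Both of these settings were chosen after the data were seen. Depletion called 3, 4, 6 and 5 genes at days 0, 3, 6 and 9, 14, 9, 26 and 59 without a filter, and 0, 0, 0 and 0 by limma with loci under 300 bases left out (52, 22, 130 and 186 at an unadjusted p under 0.05). Leaving out 1 hairpin gave 6 to 10, 4 to 7, 8 to 10 and 14 to 157 genes, and the block moved none of these 4 counts by over 1.5 times. In the discovery set edgeR called 4803 genes between stem cells and MEF (1579 to 8502 with 1 library left out, lowest without E14 replicate 2, highest without v6.5 replicate 1), 4978 between stem cells and the partial lines (1954 to 8577) and 2318 between the partial lines and MEF (1271 to 1464). MiPS against stem cells gave 5, but 175 with DESeq2, 222 without a filter, 0 with limma on log2(TPM + 1) (1505 at an unadjusted p under 0.05) and 0 to 308 with 1 library left out. E14 against v6.5 gave 82, but 1138 with DESeq2, 1417 without a filter, 565 with limma and 0 to 4376 with 1 library left out. The replicate numbers of E14 and v6.5 share only a number (correlation of their deviations 0.40, 1 pair), and a replicate block on them gave 1 gene for miPS and 114 for E14 against v6.5. Over all alternatives, 966 of the members' log2 differences stayed within the set spread and 84 moved, and 1149 counts of list genes stayed within 1.5 times and 321 did not. The cause was not tested. Read totals of the time course are not used here, so the precision of low values there, such as those of Egr2 and Egr3, is unknown.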
